A study of Mus musculus with 9 samples.

Results

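Melanocytes reach the embryonic epidermis from the neural crest and make pigment there, and 10 genes that mark them or their pigment organelle were followed in the epidermis of E18.5 mouse embryos without the splicing regulators Esrp1 and Esrp2. The genes were Dct, Tyr, Tyrp1, Pmel, Mlana, Mitf, Kit, Sox10, Ednrb and Slc45a2, each taken by its symbol from a table of 38203 genes in which it is listed once. RNA was sequenced from 9 libraries of individual embryos. WT was represented by 2 libraries, KO (Esrp1-/-, Esrp2+/+) by 3, KH (Esrp1-/-, Esrp2+/-) by 2 and DKO (Esrp1-/-, Esrp2-/-) by 2, all from a mixed C57BL6/129Sv background with back-crossing to C57BL6. Esrp1 was deleted in the germline, so that the 3 knockout genotypes all lacked it in every cell, melanocytes included, and the Esrp2 allele carried a reporter cassette in place of the gene. The tissue was trunk epidermis peeled from the dermis after trypsin.

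Melanoblasts, the precursors of melanocytes, leave the neural crest, travel through the dermis and enter the epidermis and the growing hair follicles, where they depend on the receptor Kit and its ligand. Mitf is the master transcription factor of the lineage and acts on the genes of the pigment enzymes. Melanin is made inside melanosomes, in which tyrosinase (Tyr) carries out the rate-limiting step, Dct and Tyrp1 act further along the pathway, and Pmel forms the fibrils on which pigment is laid down.

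The sums of FPKM (fragments per kilobase of exon, scaled to the number of mapped fragments) ranged from 713318 to 1130713 per library, and 11851 to 12228 genes per library reached 1 FPKM. Esrp1 had 119 and 142 FPKM in WT and 18.2 to 55.1 FPKM in the 7 knockout libraries, and Esrp2 had 0.0843 and 0.0463 FPKM in DKO against 118 and 136 FPKM in WT. The authors trace the remaining Esrp1 reads to transcripts spliced across the deleted exons, which would not give a functional protein. With 38.6 and 89.5 FPKM of Esrp2 in KH and 88.1, 88.4 and 131 in KO, KH replicate 2 did not lie below the KO libraries. The labels name the controls WT, whereas the labels' text on RNA extraction gives them as Esrp2-/-; the values of Esrp2 in both WT libraries were among the 3 highest of the 9. Xist reached 76.2 to 180 FPKM in KO (3 libraries) and WT replicate 2, whereas the remaining 5 libraries had no more than 0.178 FPKM, so that the sexes were not balanced across genotypes and cannot be told apart from them in the comparison of KO with DKO or KH.

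All 10 genes were measured above 0.8 FPKM in every library and all passed the filter on low values. In DKO epidermis each of them averaged higher than in WT, from 1.95-fold for Kit to 4.88-fold for Tyrp1. Every DKO library lay above every WT library for all 10, where this held for 27.8% of all genes tested. Their summed FPKM was 56.6 and 50.6 in WT, against 107 and 233 in DKO, 173 and 66.7 in KH and 99.7, 89.9 and 79.0 in KO. The sums in all 7 libraries without Esrp1 lay above both WT sums, but the spread within KH and DKO was 2.59-fold and 2.19-fold. None of the 10 passed the threshold for a call in any comparison, where 0% (KH against KO) to 0.728% (DKO against WT) of all genes did. FPKM is relative to the library. In whole epidermis, more melanocytes, more RNA of these genes per melanocyte and less RNA from other cells therefore cannot be told apart.

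**Figure D1:**
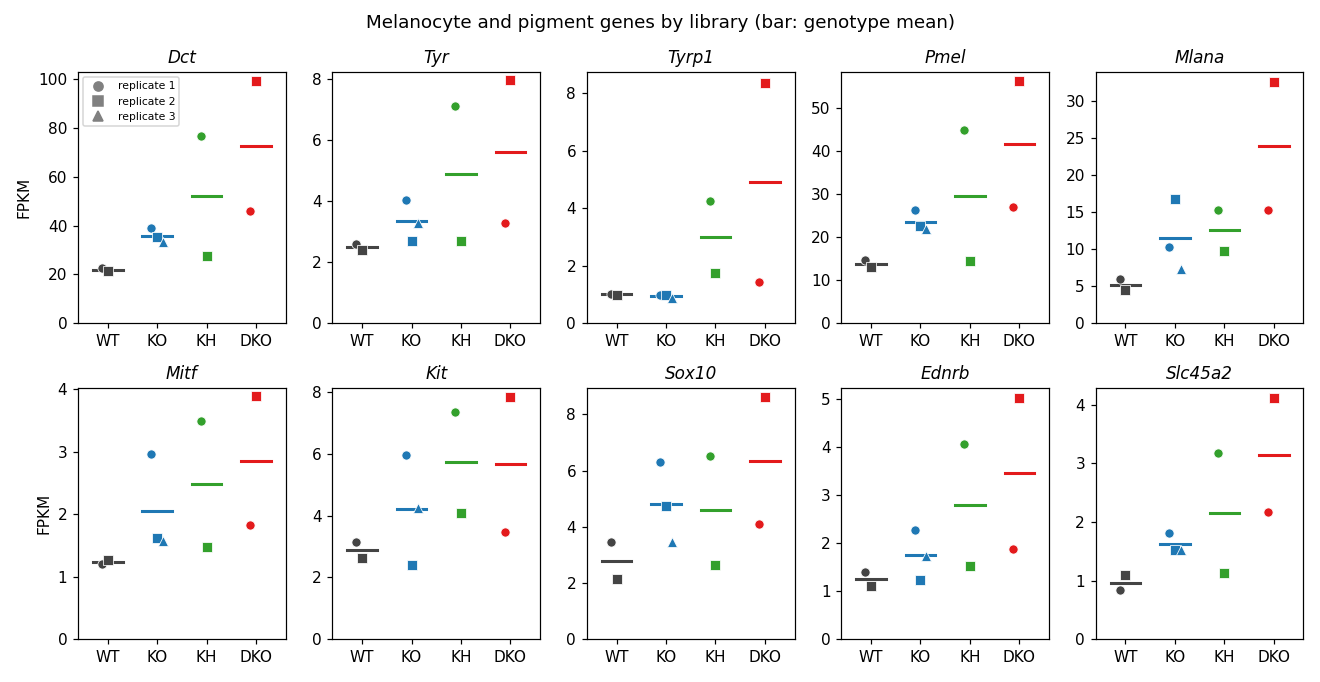
FPKM of each gene (vertical axes, linear, starting at 0) in the 2 WT, 3 KO, 2 KH and 2 DKO libraries, with symbols for replicate numbers and a horizontal bar at the genotype mean. DKO replicate 2 is the highest library for all 10 genes, and the WT libraries differ by 1.02-fold (Tyrp1) to 1.62-fold (Sox10).

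The pigment enzymes are described first. Dct, which converts dopachrome on the way to eumelanin (chromosome 14, 118012790 to 118052244, minus strand, GRCm38), was the most abundant of the 10 on the FPKM scale, which is per length. It had 22.5 and 21.4 FPKM in WT, against 46.0 and 99.1 in DKO, 76.5 and 27.3 in KH and 39.0, 35.3 and 33.1 in KO. All 7 libraries without Esrp1 were higher than both WT libraries, and the 3 KO libraries differed from each other by no more than 1.18-fold. The difference of DKO from WT was 1.58 on the log2(FPKM + 1) scale (standard error 0.47, adjusted p = 0.207 from limma over all genes).

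Tyrp1, which stabilizes tyrosinase and acts late in eumelanin synthesis (chromosome 4, 80834123 to 80851719, plus strand), behaved differently across genotypes. It had 1.02 and 0.997 FPKM in WT, against 1.44 and 8.37 in DKO, 4.27 and 1.73 in KH and 0.986, 0.995 and 0.868 in KO. The 3 KO libraries lay just below both WT libraries, whereas all KH and DKO libraries lay above them, and the 5.83-fold spread between the DKO libraries was the widest within a genotype among the 10 genes. The difference of DKO from KO was 1.29 (standard error 0.50, adjusted p = 0.610 from limma). Esrp1 is on the same chromosome, at 11331933 to 11386783.

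Tyr, the tyrosinase gene (chromosome 7, 87424771 to 87493512, minus strand), had 2.59 and 2.39 FPKM in WT, against 3.30 and 7.97 in DKO, 7.12 and 2.69 in KH and 4.06, 2.69 and 3.29 in KO. Both WT libraries were lower than the other 7, though KO replicate 2 and KH replicate 2, both at 2.69 FPKM, lay only just above WT replicate 1. The average in DKO was 2.26-fold that in WT, with a log2 difference of 0.83 (standard error 0.43).

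The promoters of these 3 enzyme genes are shown because Mitf is known to act on all of them through a short element near the start. RefSeq windows were at hand for 6 of the 10 genes, namely Dct, Tyr, Tyrp1, Mitf, Kit and Ednrb. The sequences are the 250 bases before the RefSeq start, 5′ to 3′ on the gene's strand (GRCm38.p6), at chr14:118052247-118052496 (minus strand), chr7:87493513-87493762 (minus strand) and chr4:80833963-80834212 (plus strand). Capitals mark the core of the M-box, TCATGTG, searched on both strands.
Dct: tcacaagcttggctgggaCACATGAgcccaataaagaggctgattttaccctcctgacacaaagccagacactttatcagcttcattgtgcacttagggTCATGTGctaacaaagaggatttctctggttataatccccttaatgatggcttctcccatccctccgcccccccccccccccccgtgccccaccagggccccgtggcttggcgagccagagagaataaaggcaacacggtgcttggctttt
Tyr: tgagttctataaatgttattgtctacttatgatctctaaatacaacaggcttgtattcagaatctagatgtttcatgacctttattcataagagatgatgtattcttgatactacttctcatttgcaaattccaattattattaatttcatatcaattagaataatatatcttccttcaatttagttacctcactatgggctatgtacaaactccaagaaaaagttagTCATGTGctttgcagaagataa
Tyrp1: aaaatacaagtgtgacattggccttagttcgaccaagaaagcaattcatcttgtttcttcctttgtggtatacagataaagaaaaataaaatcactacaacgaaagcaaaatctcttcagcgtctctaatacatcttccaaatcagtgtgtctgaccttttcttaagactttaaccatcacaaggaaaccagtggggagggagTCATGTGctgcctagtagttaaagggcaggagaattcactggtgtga

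Counted from the start (the base before it is -1), the core begins at -22 in Tyr, -47 in Tyrp1 and -151 in Dct, each time on the gene's strand, and Dct has a further match on the other strand that covers the bases from -232. The 10 bases GTCATGTGCT are common to the site on the gene's strand in all 3. Of 32851 windows of the same length in the RefSeq table, 3.25% hold the core on either strand and 0.155% hold the 10 bases. The windows of Mitf, Kit and Ednrb hold no match to the core. These matches describe the letters of the windows, and binding was not measured.

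Among the proteins of the melanosome, Pmel (chromosome 10, 128704195 to 128720238, plus strand) was the next most abundant. It had 14.5 and 13.1 FPKM in WT, against 27.0 and 56.1 in DKO, 44.9 and 14.3 in KH and 26.2, 22.6 and 21.9 in KO. KH replicate 2 fell between the WT libraries and the other 6 libraries without Esrp1 lay above them. The average in DKO was 3.01-fold that in WT, with a log2 difference of 1.43 (standard error 0.49, adjusted p = 0.259 from limma).

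Mlana, a melanosome protein that is widely used as a melanocyte marker (chromosome 19, 29697824 to 29708634, plus strand), had the largest log2 difference of the 10 between DKO and WT. It had 5.94 and 4.44 FPKM in WT, against 15.3 and 32.5 in DKO, 15.3 and 9.76 in KH and 10.3, 16.8 and 7.35 in KO. All 7 libraries without Esrp1 were above both WT libraries, and DKO replicate 1 and KH replicate 1 were level at 15.3 FPKM. Apart from this tie in Mlana, none of the 10 had both DKO libraries above both KH libraries, where the DKO libraries exceeded both in 14.3% of all genes. The difference of DKO from WT was 1.93 (standard error 0.44, adjusted p = 0.116 from limma), that of KO from WT 0.95 (standard error 0.40) and that of KH from WT 1.11 (standard error 0.44).

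Slc45a2, a transporter of the melanosome membrane (chromosome 15, 11000721 to 11029233, plus strand), had the lowest mean of the 10 over the 9 libraries, although Tyrp1 was lower in WT replicate 2, DKO replicate 1 and all 3 KO libraries. Ednrb was also lower than Slc45a2 in KO replicate 2 and DKO replicate 1, and Mitf was lower in both DKO libraries. Slc45a2 had 0.845 and 1.09 FPKM in WT, against 2.17 and 4.12 in DKO, 3.18 and 1.13 in KH and 1.82, 1.53 and 1.53 in KO. The WT libraries were the lowest of the 9. The average in DKO was 3.25-fold that in WT (log2 difference 1.04, standard error 0.33, adjusted p = 0.237 from limma).

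The transcription factors and receptors of the lineage were measured at low levels. Mitf (chromosome 6, 97807052 to 98021349, plus strand) had 1.21 and 1.27 FPKM in WT, against 1.84 and 3.89 in DKO, 3.49 and 1.48 in KH and 2.96, 1.63 and 1.58 in KO. Sox10, which acts above Mitf and also marks nerve glia (chromosome 15, 79154908 to 79165240, minus strand), had 3.45 and 2.13 FPKM in WT, against 4.10 and 8.61 in DKO, 6.54 and 2.63 in KH and 6.29, 4.73 and 3.47 in KO. Mitf was higher in all 7 libraries without Esrp1 than in both WT libraries, whereas for Sox10 KH replicate 2 lay between the WT libraries.

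Kit, the receptor for stem cell factor (chromosome 5, 75574916 to 75656722, plus strand), had 3.16 and 2.63 FPKM in WT, against 3.47 and 7.84 in DKO, 7.35 and 4.09 in KH and 5.96, 2.41 and 4.24 in KO. Ednrb, the endothelin receptor that melanoblasts need (chromosome 14, 103814625 to 103844402, minus strand), had 1.40 and 1.12 FPKM in WT, against 1.88 and 5.02 in DKO, 4.05 and 1.52 in KH and 2.26, 1.24 and 1.72 in KO. The KO libraries overlapped WT for both receptors. The averages in DKO were 2.31-fold those in WT for Mitf, 2.28-fold for Sox10, 1.95-fold for Kit and 2.74-fold for Ednrb, with log2 differences of 0.69 to 0.91 and adjusted p-values of 0.388 to 0.494 from limma.

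In order of the mean over the 9 libraries the genes ran Dct (44.5 FPKM), Pmel (26.7), Mlana (13.1), Sox10 (4.66), Kit (4.57), Tyr (4.01), Tyrp1 (2.30), Ednrb (2.25), Mitf (2.15) and Slc45a2 (1.94). Dct exceeded Pmel and Pmel exceeded Mlana in every one of the 9 libraries. Among the 7 genes from Sox10 to Slc45a2, the ranges over libraries overlapped for all neighbours. Annotated genes on the opposite strand overlap Pmel (Cdk2 and Dgka), Dct (4930435M08Rik) and Mitf (Gm15531); the libraries were stranded, but whether FPKM was computed with the strand is not given in the sources used here.

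The comparison of DKO with WT asks whether loss of both Esrps went with another level of these genes. None of the 10 passed both thresholds (an adjusted p from limma under 0.05 and a ratio of mean FPKM over 2), where 0.728% of the 16897 genes tested were called. At an unadjusted p below 0.05, 5 of the 10 were higher (Dct, Tyrp1, Pmel, Mlana and Slc45a2), where 6.15% of all genes were. The average FPKM was more than 2-fold higher for 9 of the 10, all but Kit, where this held for 9.8% of all genes, and the DKO libraries both lay above both WT libraries for all 10, where this held for 27.8%. The median log2 difference of the 10 was 0.97, beside 0.02 over all genes tested. It was 0.40 without DKO replicate 2. Every one of the 10 differences kept its sign there, which was fixed in advance because both DKO libraries lay above both WT libraries. Mlana was called when only DKO and WT were fitted (adjusted p = 0.0486 from limma), where 2.44% of all genes were, and Mlana and Dct were called when limma weighted the libraries by their quality (adjusted p = 0.0295 and 0.0437), where 3.29% were. Across the settings with every DKO and WT library and no covariate, the adjusted p from limma ranged from 0.0295 to 0.453 for Mlana and from 0.0437 to 0.622 for Dct.

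The comparison of KO with WT concerns the loss of Esrp1 alone. No member of the 10 was called by limma, where 0.0296% of all genes were, and 1 (Mlana) was higher at an unadjusted p below 0.05, where 2.25% of all genes were. The 3 KO libraries lay above both WT libraries for 7 of the 10, namely Dct, Tyr, Pmel, Mlana, Mitf, Sox10 and Slc45a2, where this held for 12.6% of all genes. Average FPKM was more than 2-fold higher for Mlana alone among the 10 (6.4% of all genes), and the other genes with separate libraries were 1.34-fold (Tyr) to 1.73-fold (Sox10) higher on average. The median log2 difference was 0.42.

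In KH against WT, where 1 allele of Esrp2 was also lost, no member was called by limma (0.0296% of all genes), 1 (Mlana) was higher at an unadjusted p below 0.05 (1.63% of all genes), and 7 were more than 2-fold higher on average (7.69% of all genes). The median log2 difference was 0.70 and dropped to 0.15 without KH replicate 1, so that most of the difference rested on that library. Both KH libraries lay above both WT libraries for 8 of the 10, all but Pmel and Sox10, where this held for 15.3% of all genes. The comparisons of DKO, KO and KH with WT share the same 2 WT libraries and are not independent.

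When the 3 genotypes without Esrp1 were set together against WT, none of the 10 was called by limma (0.101% of all genes), and 4 were higher at an unadjusted p below 0.05 (Dct, Pmel, Mlana and Slc45a2), where 3.88% of all genes were. The mean over the 3 genotypes was more than 2-fold that of WT for 6 genes, where this held for 8.43% of all genes. The 7 libraries all lay above both WT libraries for 5 genes, Dct, Tyr, Mlana, Mitf and Slc45a2, where this held for 5.07% of all genes. The difference of Mlana was 1.33 (standard error 0.35, adjusted p = 0.367 from limma).

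Between the knockout genotypes, none of the 10 was called by limma in DKO against KO (0.639% of all genes), DKO against KH (0.426%) or KH against KO (0%). At an unadjusted p below 0.05, Tyrp1 and Mlana were higher in DKO than in KO (3.67% of all genes), none was higher in DKO than in KH (3.2%) and none in KH than in KO (0.58%). More than 2-fold differences in mean FPKM were found for 3 genes in DKO over KO (Dct, Tyrp1 and Mlana, with 5.7% of all genes), for none in DKO over KH (5.82%) and for 1, Tyrp1, in KH over KO (3.84%). The DKO libraries both lay above all 3 KO libraries for Dct, Tyrp1, Pmel and Slc45a2 (11.2% of all genes). The median difference between DKO and KO was 0.62, and 0.14 without DKO replicate 2. Tyrp1 was the gene whose KH libraries both exceeded every KO library (3.58% of all genes), with a log2 difference of 0.96 (standard error 0.50).

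**Figure D2:**
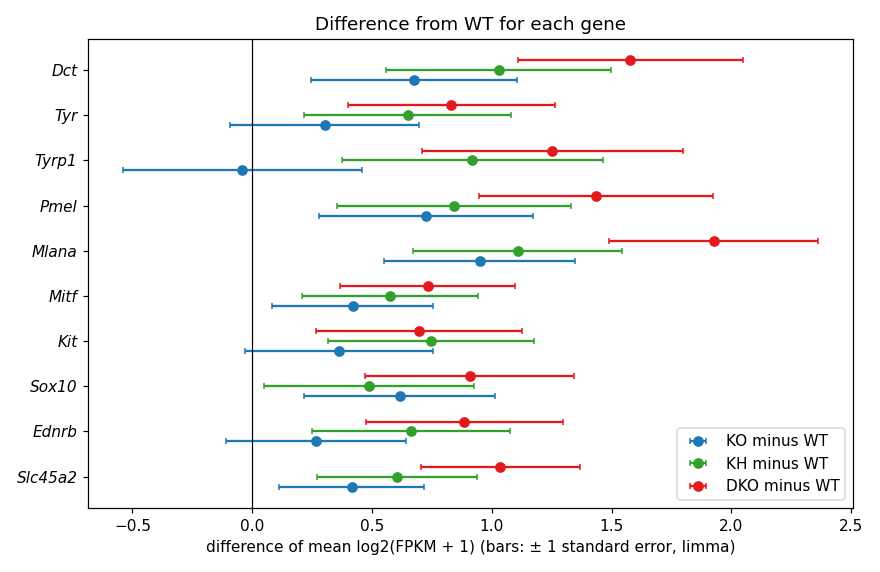
Difference of the mean log2(FPKM + 1) of KO, KH and DKO from WT for each gene, fitted with limma over 9 libraries, with bars of 1 standard error on either side. The DKO differences run from 0.69 for Kit to 1.93 for Mlana, and the KO difference of Tyrp1 lies at -0.04.

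To ask whether the genes kept their proportions, each was divided by Dct of the same library. Per 100 FPKM of Dct, Pmel ranged only from 52.4 to 67.2 FPKM over the 9 libraries and Slc45a2 from 3.76 to 5.10 FPKM, a 1.28-fold and a 1.36-fold range, while Dct itself ranged over 4.62-fold. Tyrp1 had the widest range, 3.34-fold. It stood at 4.51 and 4.65 FPKM per 100 FPKM of Dct in WT, against 3.12 and 8.45 in DKO, 5.58 and 6.33 in KH and 2.53, 2.82 and 2.62 in KO. The 3 KO libraries were thus the lowest of the 9 in this proportion, close to each other and below both WT libraries. Tyr was at 11.5 and 11.2 in WT, against 7.16 and 8.05 in DKO, 9.30 and 9.85 in KH and 7.61 to 10.4 in KO, so that its proportion was highest in both WT libraries. Kit stood at 14.0 and 12.3 in WT and at 7.54 and 7.92 in DKO, and the proportions of Mitf, Sox10 and Ednrb in both DKO libraries likewise lay below both WT libraries. Mlana, with a range of 2.37-fold, lay higher in both DKO libraries (33.2 and 32.8) than in WT (26.4 and 20.7). For Kit, Mlana, Mitf, Sox10 and Ednrb the KO libraries overlapped WT. These proportions were examined after the levels had been seen and were not tested, and an exact permutation test of 3 against 2 libraries could not pass 0.05.

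**Figure D3:**
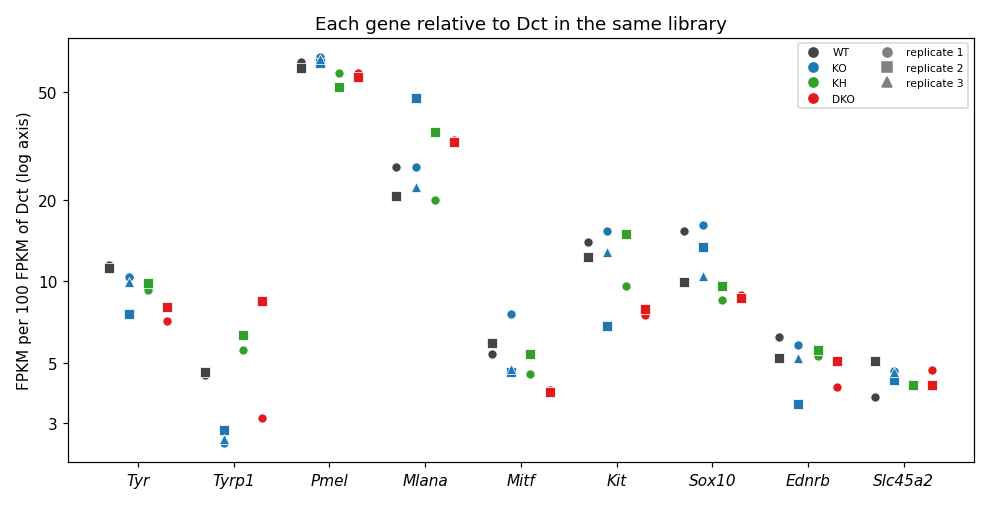
FPKM of each of 9 genes per 100 FPKM of Dct in the same library (log axis), by genotype (colour) and replicate (symbol). Pmel and Slc45a2 form tight clusters, and the 3 KO libraries are the lowest for Tyrp1.

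The spread within genotypes was shared by the 10 genes. DKO replicate 2 was the highest library for all 10, and DKO replicate 2 and KH replicate 1 were the top pair for 9 of them, the exception being Mlana. A melanocyte score, the mean over the 10 genes of log2(FPKM + 1) centred on its mean over libraries, was -0.51 and -0.64 in WT, against 0.02 and 1.08 in DKO, 0.70 and -0.33 in KH and 0.10, -0.18 and -0.24 in KO. Each gene was set against the same score of the other 9 over the 9 libraries, which share their genotypes: Pearson's r was 0.98 for Dct, 0.97 for Pmel, Slc45a2, Tyr and Ednrb, 0.94 for Mitf, 0.89 for Sox10, 0.86 for Tyrp1, 0.84 for Kit and 0.82 for Mlana. Without DKO replicate 2 and KH replicate 1 the r of Tyrp1 dropped to 0.05 and that of Kit to 0.49, while Dct stayed at 0.94 and Pmel at 0.91.

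In sum, the hair follicle list and the basal keratinocyte list were highest in KO replicate 1, DKO replicate 2 and KH replicate 1. Not every gene followed its sum. Foxn1 of the follicle list was below both WT libraries in these 3, Krt27 and Krt71 were highest in KH replicate 2, and the basal gene Trp63 was below both WT libraries in DKO replicate 2. Lhx2, a transcription factor of hair follicle progenitors, had 5.71 and 3.79 FPKM in WT, against 5.98 and 16.1 in DKO, 18.0 and 3.43 in KH and 12.5, 6.26 and 4.23 in KO. Thus it was high in DKO replicate 2 and KH replicate 1, and also in KO replicate 1, in which Dct had only 39.0 FPKM. Summed over its 11 genes the hair follicle list ranged from 422 to 494 FPKM in WT, against 577 to 677 in DKO, 386 to 662 in KH and 401 to 718 in KO, with Dsg4 at or near 0. Most of this sum was the keratin Krt17, and without it the list stood at 45.3 and 43.3 FPKM in WT, against 37.9 and 77.8 in DKO, 83.9 and 39.1 in KH and 79.4, 40.1 and 48.5 in KO. The members of the list did not move alike in DKO replicate 1, where Wnt10b, Shh and Foxn1 were below both WT libraries and Krt17, Lhx2, Msx2, Krt27 and Krt71 above both. Msx2, a transcription factor of the hair matrix, had 1.01 and 1.01 FPKM in WT, against 1.54 and 2.87 in DKO, 1.98 and 1.12 in KH and 2.25, 1.61 and 1.19 in KO, above WT in all 7 libraries. Of this list it alone had an unadjusted p under 0.05 for DKO and WT (log2 difference 0.64, standard error 0.28, adjusted p = 0.357 from limma). The 6 basal keratinocyte genes (such as Krt14) summed to 4239 to 4287 FPKM in WT, against 5764 to 7118 in DKO, 3653 to 6988 in KH and 4735 to 7877 in KO. The 5 suprabasal genes (such as Krt10) summed to 54523 and 67072 FPKM in WT and were lowest in KO replicate 1 (25837), DKO replicate 2 (30147) and KH replicate 1 (30921). Of the 6 basal genes 5 had a positive and 1 a negative log2 difference of DKO from WT, and all 5 suprabasal genes a negative one, none of them called by limma. The DKO average was 1.88-fold the WT average for Krt14, 1.45-fold for Itga6, 1.40-fold for Itgb4, 1.06-fold for Col17a1 and 0.811-fold for Trp63. It was 0.50-fold for Krt10, 0.689-fold for Krt1, 0.839-fold for Lor, 0.966-fold for Ivl and 0.969-fold for Flg.

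Over the 9 libraries, Pearson's r of the melanocyte score was 0.84 with the hair follicle score, 0.76 with the basal score and -0.77 with the suprabasal score. Without DKO replicate 2 and KH replicate 1, the samples farthest from the median, r was 0.57, 0.62 and -0.59. With the hair follicle score as a covariate the median difference of the 10 genes between DKO and WT was 0.65, and with the basal score it was 0.68, beside 0.97 with no covariate. For KO against WT it was 0.23 with the hair follicle score and 0.12 with the basal score, beside 0.42 with no covariate. In DKO replicate 1 the hair follicle score (-0.23) and basal score (-0.22) lay near those of WT. This library had 46.0 FPKM of Dct and 27.0 FPKM of Pmel, which reached 22.5 and 14.5 FPKM in WT. Kit (3.47 FPKM) and Tyr (3.30 FPKM) lay less far above WT, where they reached 3.16 and 2.59 FPKM. The part of hair follicles or of the layers sampled in the differences was not tested.

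**Figure D4:**
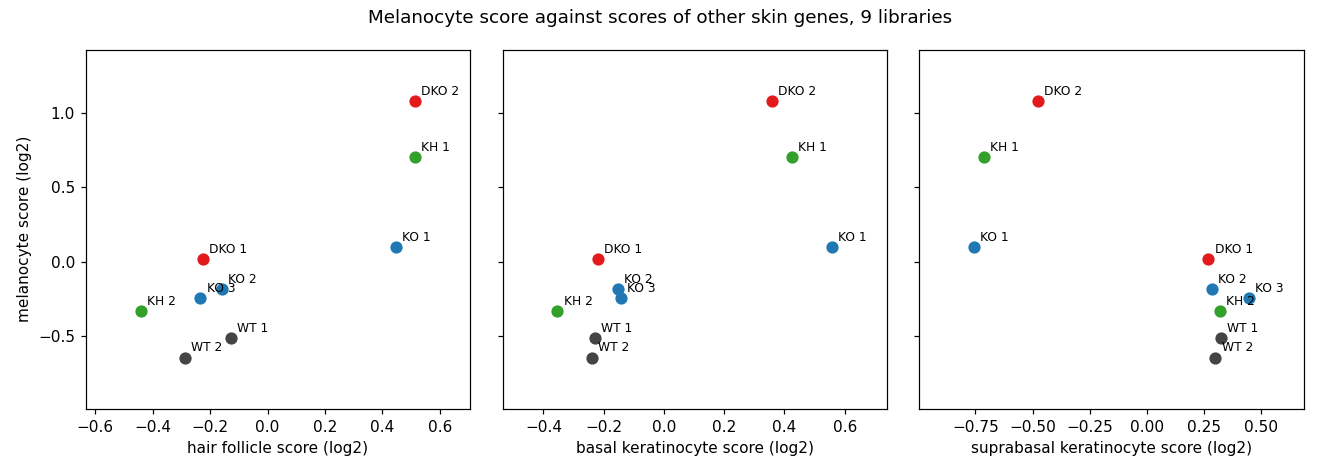
Melanocyte score of each library (vertical axis, centred log2) against the scores of hair follicle, basal keratinocyte and suprabasal keratinocyte genes (horizontal axes, same scale), coloured by genotype. DKO replicate 2, KH replicate 1 and KO replicate 1 share high follicle and basal scores, while their melanocyte scores are 1.08, 0.70 and 0.10.

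Markers of other cells that express Kit, Sox10 or Ednrb were examined in the same libraries. Of 9 mast cell genes, Ms4a2 and Fcer1a were listed at 0 in all libraries, and the 9 summed to 0.750 to 0.789 FPKM in WT, against 1.64 to 2.50 in DKO, 0.582 to 1.57 in KH and 0.932 to 1.89 in KO. The higher sum in DKO was mostly Mrgprb2, a receptor of mast cells named here after its values were seen, with 0.253 and 0.175 FPKM in WT and 1.91 and 0.984 in DKO, and without it the list summed to 0.497 and 0.615 FPKM in WT and 0.589 and 0.653 in DKO. The 5 endothelial genes summed to no more than 0.355 FPKM in any library. Of 10 genes of Schwann cells and nerve glia, Gfra3, S100b and Ngfr did not exceed 0.1 FPKM; the sum of the list, mostly Erbb3, which keratinocytes also express, was 45.1 to 46.0 FPKM in WT, against 39.5 to 40.1 in DKO, 33.3 to 48.3 in KH and 33.9 to 47.2 in KO. Mbp, a myelin protein, averaged 0.726-fold the WT level in DKO. Fabp7, a fatty acid binding protein of glial precursors, had the largest difference of DKO from WT in this list, with 0.405 and 0.533 FPKM in WT, against 1.29 and 2.37 in DKO, 1.83 and 0.830 in KH and 1.91, 1.57 and 0.781 in KO (log2 difference of DKO from WT 0.92, standard error 0.30, adjusted p = 0.243 from limma). Of 8 dermal fibroblast genes, Postn was 1.51-fold higher in DKO than in WT on average; the list summed to 253 and 299 FPKM in WT and 350 to 497 FPKM in the 7 other libraries, of which most was Postn. Without Postn the list summed to 77.0 and 87.2 FPKM in WT and 45.5 and 77.9 in DKO, Dcn averaged 0.735-fold the WT level in DKO, and 4 of the 7 genes tested had positive and 3 negative differences. In KO and in KH all 7 had positive differences from WT (median log2 difference 0.58 and 0.21), and without Postn the list summed to 155, 84.6 and 92.4 FPKM in KO and 142 and 52.2 in KH. Col1a2 averaged 1.24-fold the WT level in DKO. The collagens Col1a1 and Col3a1 were highest in KO replicate 1. The part of these cells in the levels of Kit, Sox10 and Ednrb was not tested.

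Other genes of the pigment pathway were followed in 2 lists. Of 14 genes for pigment enzymes and melanosome proteins 13 were tested, and in DKO against WT none was called by limma, 6 were higher at an unadjusted p below 0.05 (Slc24a5, Gpr143, Trpm1, Cd63, Tpcn2 and Mc1r), where 6.15% of all genes were, and none was lower. Of the 13 differences 11 were positive and 2 negative, with a median of 0.52. Slc24a5, an ion exchanger of the melanosome, had 5.09 and 4.09 FPKM in WT, against 8.24 and 16.2 in DKO, 12.7 and 6.52 in KH and 8.57, 7.06 and 5.77 in KO, with the same high libraries as the 10 genes and all 7 above WT. Trpm1, a channel of melanocytes, had 5.11 and 3.88 FPKM in WT, against 7.62 and 13.0 in DKO, 9.01 and 6.77 in KH and 6.80, 6.54 and 4.88 in KO (log2 difference of DKO from WT 1.01, standard error 0.30, adjusted p = 0.199 from limma). Atp7a, the copper transporter that loads tyrosinase but is made by most cells, ran the other way, with 5.74 and 12.1 FPKM in WT and 5.86 and 2.08 in DKO (log2 difference -1.03, standard error 0.49).

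The list for melanosome assembly and transport holds genes that keratinocytes also use. Of its 18 genes tested, in DKO against WT none was called by limma, 5 were lower at an unadjusted p below 0.05 (Rab27a, Myo5a, Mreg, Bloc1s3 and Lyst), where 7.6% of all genes were, and none was higher. Of the 18 differences 13 were negative and 5 positive, with a median of -0.25, and the positive ones included, chosen after their values were seen, Dtnbp1 (1.51-fold on average, log2 difference 0.55, standard error 0.27) and Hps4 (1.46-fold, log2 difference 0.49, standard error 0.28). Mreg, which takes part in moving melanosomes, had 24.7 and 24.3 FPKM in WT, against 11.7 and 7.30 in DKO, 11.8 and 22.1 in KH and 11.2, 13.9 and 21.9 in KO, and every WT library was above the other 7. The log2 difference of DKO from WT was -1.31 for Mreg (standard error 0.38, adjusted p = 0.191 from limma), -1.27 for Lyst, which governs lysosome size (standard error 0.41), and -0.90 for Bloc1s3, a subunit of the complex that sorts melanosome cargo (standard error 0.21, adjusted p = 0.123).

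**Figure D5:**
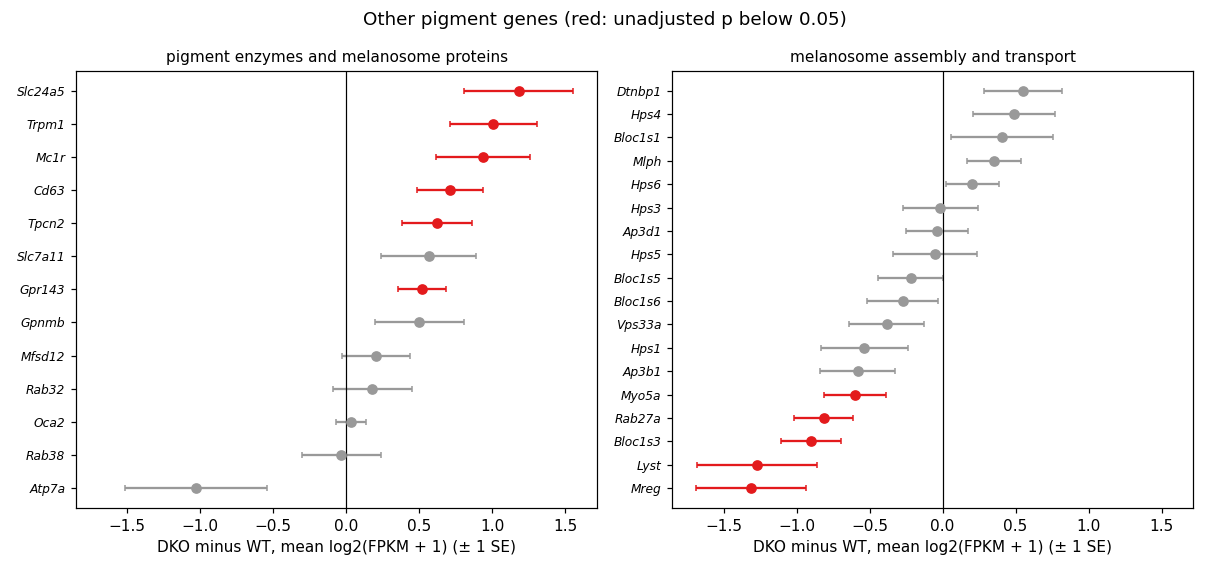
Difference of the mean log2(FPKM + 1) between DKO and WT, with bars of 1 standard error on either side, for 13 pigment enzyme and melanosome genes and 18 assembly and transport genes; red marks an unadjusted p below 0.05. The 6 red genes on the left lie above 0 and the 5 on the right lie below it.

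Among the signals to melanocytes, 6 of 8 genes were tested and none was called by limma or passed an unadjusted p of 0.05 in any comparison. Kitl, the ligand of Kit, had 3.75 and 4.01 FPKM in WT, against 3.78 and 8.13 in DKO, 10.5 and 3.48 in KH and 8.52, 3.96 and 4.26 in KO, thus high in KO replicate 1, KH replicate 1 and DKO replicate 2. Ece1, which activates endothelins, averaged 0.686-fold the WT level in DKO (log2 difference -0.52, standard error 0.48). Edn3, a ligand of Ednrb, did not exceed 0.1 FPKM. Among 11 transcription factors of the lineage none was called by limma and none passed an unadjusted p of 0.05 in DKO against WT. Lef1, a transcription factor of Wnt signalling that hair follicle cells also make, had 9.90 and 8.41 FPKM in WT, against 11.2 and 17.2 in DKO, 21.2 and 7.88 in KH and 23.5, 13.9 and 12.5 in KO (log2 difference of DKO from WT 0.55, standard error 0.45). Pax3, which acts above Mitf, averaged 1.99-fold higher in DKO (log2 difference 0.55, standard error 0.30), and Sox9, which melanocytes share with hair follicle cells, 2.05-fold higher (log2 difference 0.78, standard error 0.36).

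Of 12161 genes averaging at least 1 FPKM, the 10 outside the set whose log2(FPKM + 1) followed the melanocyte score most closely over the 9 libraries were Slc24a5 (Pearson's r 0.99), Mycn (0.97), Slc2a9 (0.96), Gpnmb (0.96), Tsga14 (0.95), Adamts9 (0.95), St3gal5 (0.95), Nr4a1 (0.95), Sestd1 (0.95) and Cntfr (0.95). After the genotype means were removed, r stayed between 0.92 and 0.98 for these 10. Without DKO replicate 2 and KH replicate 1 it ranged from 0.73 for Gpnmb to 0.97 for Slc24a5. Mycn, a growth regulator that is not specific to melanocytes, had 1.81 and 1.10 FPKM in WT, against 2.25 and 5.84 in DKO, 5.60 and 1.56 in KH and 2.87, 1.89 and 1.59 in KO.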

How the data were processed

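Epidermal RNA from individual embryos was sequenced by the authors with a stranded, poly(A) selected kit. Per the labels and the study's methods, the authors mapped paired reads to mm10 and Ensembl release 72 with TopHat v1.4.1 and deposited FPKM for each gene and library from Cuffdiff v2.2.0; how libraries were scaled against each other is not given in the sources used here. FPKM holds no read counts, so no counting interval was given. The spacing of values under 0.3 FPKM gave reads per FPKM of 1.11 to 3.97 relative to DKO replicate 1, with 1.75 in DKO replicate 2 and 1.73 in KH replicate 1. The authors' genotype means were not used.

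Genes averaging above 0.1 FPKM in at least 1 genotype (16897) were analysed as log2(FPKM + 1), which understates differences of low genes. A model of 4 genotype means was fitted to the 9 libraries in limma 3.58.1 (R 4.3.3) with an intensity trend, and p-values were adjusted over all genes tested by the Benjamini-Hochberg method. Calls needed an adjusted p under 0.05 and a ratio of mean FPKM over 2. The script was tested on simulated data. The 10 members and the gene lists were chosen with earlier results of these data known, so no test was made over a list. Other genes were named where they were called, where they averaged at least 1 FPKM and were among the 3 of their list with the largest difference of DKO from WT, or where they were among the 10 most like the score; further genes were named after their values were seen. Coordinates came from GENCODE M21, and Asip and Bloc1s2 were not analysed here. The alternatives were another pseudocount, filters, scalings, fits, a replicate block and leaving out libraries. Python 3.11.15, pandas 2.3.3, numpy 2.4.6 and matplotlib 3.10.9 were used.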

Additional observations from a re-analysis of the deposited data

How the results depend on the processing

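The differences between DKO and WT were positive for all 10 genes under each of the alternatives run. Leaving out libraries could not have changed a sign, because both DKO libraries lay above both WT libraries for all 10. No member was called in any comparison under any alternative except in DKO against WT, where 1 was called with only the genotypes compared fitted (400 of all 16388 genes tested, 2.44%) and 2 with weighted libraries (556 of 16897, 3.29%); leaving out each library in turn gave 0 calls of members in every comparison. Over those left-out libraries the median difference ranged from 0.40 to 1.40 for DKO against WT, 0.15 to 1.19 for KH against WT, 0.29 to 0.56 for KO against WT and 0.14 to 1.10 for DKO against KO. The lowest values for DKO came without DKO replicate 2 and the lowest for KH without KH replicate 1. With both left out, an alternative chosen after seeing the data like the 2 covariates, the medians were 0.40 for DKO and 0.15 for KH against WT. A lone library of a genotype was taken to vary as the other genotypes do. The alternatives that kept every library and had no covariate gave 0.96 to 1.36 for DKO against WT. Libraries with the same number in their titles correlated from -0.59 to 0.48 in their deviations from genotype means. The title numbers thus do not pair them. The samples' descriptions number them otherwise. By those, DKO replicate 1, KH replicate 2 and KO replicate 2 share a number and correlated at 0.34 to 0.56. KH replicate 1, KO replicate 1 and WT replicate 1 share another and correlated at -0.24 to 0.48. Pairing by the descriptions was not fitted. With the replicate block, which used the title numbers, the median of DKO against WT was 0.97, 0 members were called and 67 of all genes were called. Genes called in DKO against WT numbered 123, and between 41 (no filter) and 556 (weighted libraries) under alternatives that kept every library. With 2 libraries in each of DKO and WT, the standard errors of the 10 differences were 0.33 to 0.55.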
